A study of Mus musculus with 9 samples.

Results

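Cdx1, Cdx2 and Cdx4 are the 3 caudal-type homeobox genes of the mouse, and their transcripts were followed while wild-type and Hnrnpll knockout embryonic stem cells formed embryoid bodies. They were taken by gene name and make up 3 of the 49326 named genes in the deposited tables, and all 3 passed the filter on low counts. Cdx2 had the clearest pattern: it stood at 37.3 TPM (a transcript level scaled by gene length and library) in wild-type bodies of day 8 and at 1.77 and 4.69 TPM in the knockout bodies of that day. Cdx1 and Cdx4 were below wild type in the knockout at days 0 and 4 and above it at day 8, and of these differences that of Cdx4 at day 8 passed the test.

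PolyA+ RNA was sequenced from stem cells (day 0) and from embryoid bodies, aggregates in which stem cells differentiate, after 4 and 8 days. Wild type gave 1 library per day, and the Hnrnpll knockout gave 2 libraries per day, 1 from each of the lines named G6 and H8. All stem cells grew in medium that held leukemia inhibitory factor and 15% fetal bovine serum, bodies were made in hanging drops, and no further treatment is named. Wild type is a single line, so line and genotype cannot be told apart, and the labels say neither how the knockout was made nor whether a line is 1 clone. Nothing in the labels says that libraries came from separate cultures. The p-values within a day, between days and of steps measure the spread between the 2 knockout lines, which may be partly technical. In these tests each wild-type library was taken to vary as much as the knockout lines do. The p-values over all days also measure how the difference between genotypes varied from day to day. Those between lines measure how the difference between lines varied from day to day.

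Caudal proteins are homeodomain transcription factors that pattern the posterior body axis. In the embryo they are switched on in the primitive streak and tail bud by WNT, FGF and retinoic acid signals, and they bind and activate Hox genes of the central and posterior groups. Cdx2 is also known from trophectoderm, where it and the pluripotency factor Pou5f1 repress each other, and from intestinal epithelium, and Cdx4 is known for its part in the formation of blood progenitors.

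The promoters of Cdx2 and Cdx4 are shown because both hold 1 copy of the octamer ATGCAAAT, the textbook site of POU-domain factors such as Pou5f1. The promoter of Cdx1 was not searched, so nothing is said of its motifs. Over the 9 libraries Pou5f1 had a Pearson correlation of -0.821 with Cdx2 and of 0.513 with Cdx4, so the 2 genes shown here differed in sign. The sequences are from RefSeq (build GRCm38.p6), are written 5′ to 3′ on the strand of the gene and lie before the gene start. The first spans chr5:147307271-147307499 on the minus strand (229 bases) and the second chrX:103321148-103321397 on the plus strand (250 bases), and capitals mark the octamer:
Cdx2: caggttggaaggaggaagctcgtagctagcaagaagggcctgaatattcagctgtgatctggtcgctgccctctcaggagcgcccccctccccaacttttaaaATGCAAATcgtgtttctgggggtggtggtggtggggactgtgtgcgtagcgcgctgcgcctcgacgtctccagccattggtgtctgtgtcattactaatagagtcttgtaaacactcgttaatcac
Cdx4: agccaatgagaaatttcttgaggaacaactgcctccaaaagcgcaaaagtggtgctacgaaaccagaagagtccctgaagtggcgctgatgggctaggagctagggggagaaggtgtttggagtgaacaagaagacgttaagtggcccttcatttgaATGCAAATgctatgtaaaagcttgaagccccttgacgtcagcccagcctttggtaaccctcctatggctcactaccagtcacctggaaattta
Counted from the RefSeq start, the octamer lies at -147 to -140 in Cdx2 and at -93 to -86 in Cdx4. The Cdx2 sequence as printed stops short of the RefSeq start, at the point where the GENCODE gene begins, so its last base is not -1. Searched on both strands over the same windows, it occurred in 1.54% (415) and 1.61% (435) of 27025 RefSeq promoters. No match was found in either window, on either strand, for CTTTGA (TCF/LEF, the WNT effectors; in 13.2% and 14% of promoters), TTTATG (the caudal site; 10.5% and 11.1%) or AGGTCA (the retinoic acid receptor half-site; 12.9% and 13.8%). Since the octamer alone matched, no match overlaps another; the motifs were chosen after the sequences had been seen, and a match is a description of letters and not of binding.

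Total counts ran from 54202944 and 61611725 in the day 0 knockout libraries to between 113023429 and 184890212 in the other libraries, and 15445 to 16446 genes reached 1 TPM. Counts from 1 to 40 fell on multiples of 4 in 43.5% and 42.6% of cases in the day 0 knockout libraries and in 30.5% to 33.2% in the others (25% by chance), for a cause that is not known. All 3 caudal counts are multiples of 4 in both day 0 knockout libraries, so a count may not stand for 1 independent fragment. In the wild-type library of day 8 Cdx1 (56) and Cdx2 (5524) are multiples of 4 also, while Cdx4 has 0 counts there, which is uninformative. The targeted gene, Hnrnpll, an RNA-binding splicing regulator, stood at 77.1, 101 and 112 TPM in the wild-type libraries of days 0, 4 and 8. Its level in the knockout was 54.9, 61.2 and 56.5 TPM in line G6 and 24.5, 38.6 and 43.5 TPM in line H8. Every knockout library was below every wild-type library, by 1.94, 2.03 and 2.24 times in the means of the 3 days, but transcript remained. The difference did not pass the test at any day (adjusted p = 0.245, 0.376 and 0.212).

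Cdx2, the caudal factor of trophectoderm, hindgut and tail bud, was higher at each later day of the wild-type course, at 1.31, 17.3 and 37.3 TPM (178, 2691 and 5524 counts) at days 0, 4 and 8. In the knockout it stood at 0.122, 0.562 and 1.77 TPM in line G6 (8, 89 and 346 counts). In line H8 it stood at 0.159, 1.43 and 4.69 TPM (12, 252 and 1101 counts). At each day both knockout libraries were below the wild-type library, with no overlap. The wild-type level was 10.8 and 8.25 times that of G6 and H8 at day 0, 30.8 and 12.1 times at day 4, and 21.1 and 7.96 times at day 8. The day 8 knockout libraries were thus above the wild-type stem cells but below the wild-type bodies of day 4.

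**Figure D1:**
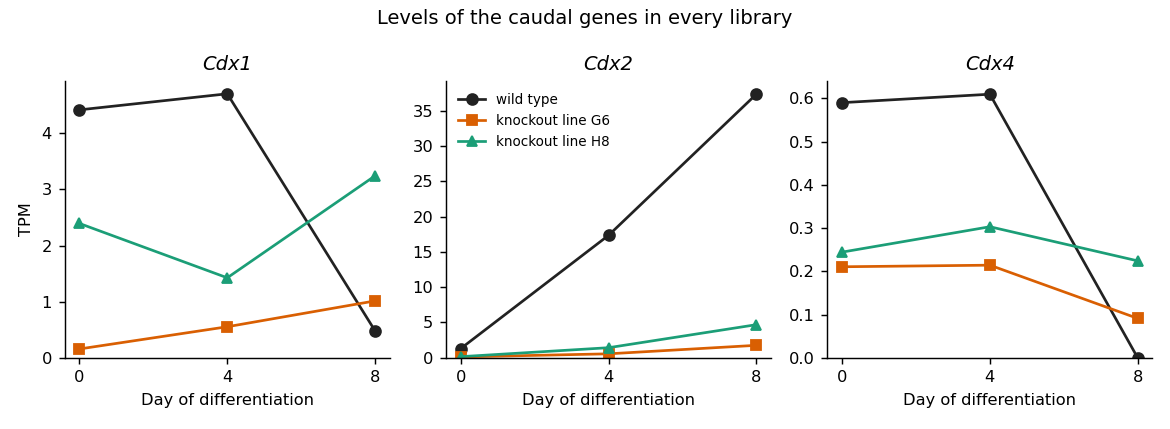
Level of each caudal gene in TPM (vertical axis, from 0, a different scale for each gene) against the day of differentiation, with 1 point per library: black circles for wild type, orange squares for knockout line G6 and green triangles for line H8. Cdx2 reaches 37.3 TPM in wild type and 1.77 and 4.69 TPM in the knockout lines, while Cdx1 and Cdx4 are lower in wild type at day 8 than at day 4.

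Tested with edgeR's quasi-likelihood test and Benjamini-Hochberg adjustment over 24794 genes, with a threshold of 0.05, Cdx2 was lower in the knockout at day 8 by a log2 difference of -3.41 (SE 0.71, 10.6-fold, 95% interval -5.14 to -1.68, adjusted p = 0.039). At that day 4.86% of all genes tested were called lower and 5.01% higher. Its day 0 difference was -3.20 (SE 0.809, interval -5.17 to -1.23, adjusted p = 0.0793), and 4.33% of genes were called lower and 1.11% higher at day 0. With the knockout line as a replicate block the day 0 difference passed the test (-3.28, adjusted p = 0.017), where 1562 genes were called, 1212 of them lower. At day 4 the difference of -4.18 was the largest of the 3 in size (SE 0.728, interval -5.95 to -2.40) but did not pass (adjusted p = 0.137), where only 0.00403% of genes were called lower and 0.00403% higher. DESeq2 called Cdx2 lower at days 0 and 4 also (adjusted p = 0.00115 and 1.58e-06). It called far more genes than edgeR, 3737 at day 0 (2259 lower) and 1320 at day 4 (442 lower).

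Averaged over the days, Cdx2 fell by 3.64 on the log2 scale in the knockout (SE 0.418, 12.4-fold, interval -4.59 to -2.68, adjusted p = 0.0215), and it was lower than wild type in 6 of 6 knockout libraries. Over all days 0.597% of genes were called lower (148) and 0.387% higher (96), and scaling by total count gave 99 and 97. The adjusted p moved above the threshold at day 8 without either knockout library of day 4 (0.0676 for each) or of day 8 (0.134 without G6 and 0.065 without H8). Over all days it did so without the wild-type library of day 8 (0.0597), the day 4 library of G6 (0.0672), the day 0, 4 or 8 library of H8 (0.0536, 0.0676 and 0.0548), or all day 0 libraries (0.0572), with differences from -3.41 to -3.90.

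The level of Cdx2 also went up from day to day in both knockout lines, from a lower base. Between days 0 and 4 its TPM went up 4.62-fold in G6, 8.99-fold in H8 and 13.2-fold in wild type, and between days 4 and 8 3.14-fold, 3.28-fold and 2.15-fold. In the knockout the first step was 2.82 on the log2 scale (SE 0.731, interval 1.04 to 4.60, adjusted p = 0.0526), where 9.56% of genes were called higher and 5.16% lower. The line block brought it past the threshold (2.74, adjusted p = 0.0107), as did leaving out the wild-type library of day 8 (adjusted p = 0.0495). The second step was 1.68 (SE 0.616, interval 0.179 to 3.18, adjusted p = 0.32), where 0.165% were called higher and 0.145% lower. The test of whether a step differed between genotypes gave -0.98 for the first step (adjusted p = 0.713) and 0.76 for the second (SE 1.03, adjusted p = 0.771), so a difference in the fold of either step was not detectable with these libraries. For these steps 0.456% and 0% of all genes were called higher in the knockout and 0.0484% and 0% lower. The 0 calls of the second step came from edgeR, against 4041 genes at an unadjusted p under 0.05 and 1577 calls by DESeq2.

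Cdx1, a direct target of WNT and retinoic acid signals, followed another course. In wild type it stood at 4.42, 4.70 and 0.481 TPM (462, 565 and 56 counts) at days 0, 4 and 8, 9.78 times lower at day 8 than at day 4. Line G6 had 0.157, 0.553 and 1.01 TPM (8, 68 and 154 counts). Line H8 had 2.39, 1.42 and 3.24 TPM (140, 194 and 589 counts). At days 0 and 4 both knockout libraries were below wild type, and at day 8 both were above it, by 2.11-fold in G6 and 6.74-fold in H8. The lines lay far apart at day 0, where wild type was 28.1 times G6 and 1.85 times H8.

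None of the Cdx1 differences between genotypes passed the edgeR test. They were -1.73 at day 0 (SE 1.37, interval -5.07 to 1.61, adjusted p = 0.481), -2.30 at day 4 (SE 1.36, interval -5.62 to 1.01, adjusted p = 0.521) and 2.24 at day 8 (SE 1.60, interval -1.67 to 6.14, adjusted p = 0.4) on the log2 scale. Between days 4 and 8 the gene went up 1.83-fold in G6 and 2.27-fold in H8 and down in wild type. The test of that contrast gave 4.54 (SE 2.14, interval -0.672 to 9.76, adjusted p = 0.361). Over all days the difference was -1.15 (SE 1.06, adjusted p = 0.589), and within the knockout the steps were -0.40 and 1.09 (adjusted p = 0.849 and 0.797), the first of which had the other sign in several of the alternatives.

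Cdx4, the caudal gene known for its part in blood formation, was the lowest of the 3 in every wild-type library. Wild type had 0.590, 0.609 and 0 TPM (70, 83 and 0 counts) at days 0, 4 and 8. Line G6 had 0.210, 0.214 and 0.0911 TPM (12, 30 and 16 counts). Line H8 had 0.244, 0.303 and 0.224 TPM (16, 47 and 46 counts). At days 0 and 4 wild type was above both knockout libraries, by 2.01-fold to 2.85-fold, and at day 8 both knockout libraries held counts while wild type held none.

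The day 8 difference of Cdx4 passed the test (adjusted p = 0.0437), with the knockout higher in 2 of 2 libraries. Set against a floor of 3 counts in the wild-type library (0.0221 CPM, counts scaled to library size), the knockout mean of 0.176 CPM was at least 7.96-fold higher, or at least 1.99-fold if counts come in steps of 4. These bounds cover counting error in the wild-type library only and take the knockout mean as exact. That mean rests on 0.103 CPM in G6 and 0.249 CPM in H8 (16 and 46 counts). The call was lost without either day 4 knockout library (adjusted p = 0.0955 and 0.0967) or either day 8 knockout library (0.102 and 0.0987), and under limma-voom (0.11) and limma on log2(TPM + 1) or log2(TPM + 0.1) (0.293 and 0.144). The differences at days 0 and 4 were -1.37 (SE 0.763, interval -3.23 to 0.486, adjusted p = 0.326) and -1.29 (SE 0.744, interval -3.10 to 0.521, adjusted p = 0.511) on the log2 scale. Over all days the difference was -0.37 (adjusted p = 0.883), and within the knockout Cdx4 steps were 0.21 and -0.71 (adjusted p = 0.859 and 0.739).

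**Figure D2:**
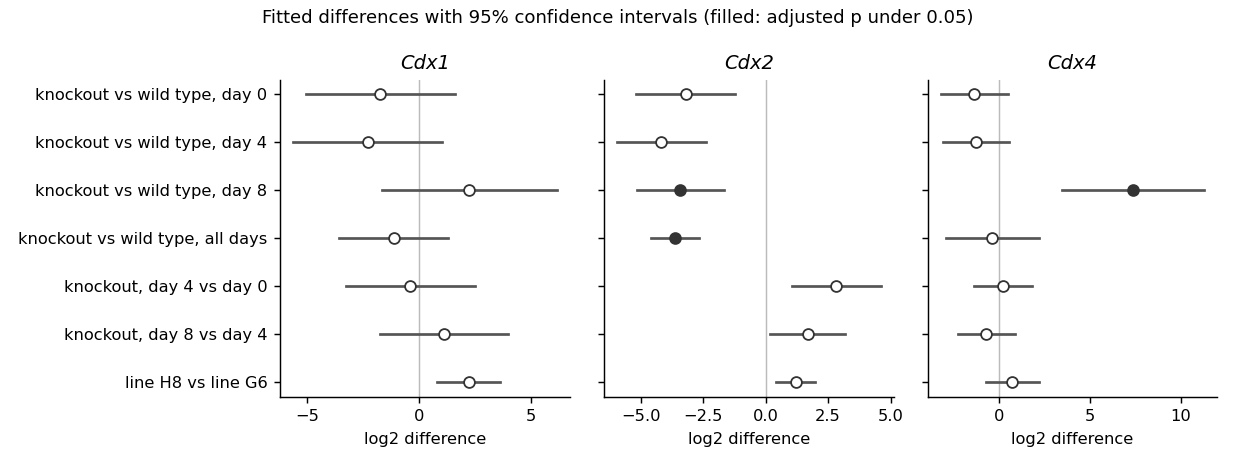
Fitted log2 difference (horizontal axis, a different range for each gene) for each caudal gene in 7 comparisons, as a point with its 95% confidence interval, filled where the adjusted p is under 0.05. The filled points are Cdx2 at day 8 and over all days, both below 0, and Cdx4 at day 8, where wild type holds 0 counts and the fitted size is no bound.

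Because TPM is scaled by length, the 3 genes can be set beside each other as shares of their summed level. In wild type the sum was 6.32, 22.7 and 37.8 TPM, and its make-up passed from Cdx1 to Cdx2. Cdx1 made up 69.9% of it at day 0, 20.7% at day 4 and 1.27% at day 8. Cdx2 made up 20.8%, 76.6% and 98.7%, and Cdx4 9.34%, 2.69% and 0%. In the knockout bodies the sum was 1.33 and 3.16 TPM at day 4 and 2.87 and 8.16 TPM at day 8 (G6, then H8). Cdx1 held 35.3% and 39.7% of the sum at day 8, and Cdx2 61.5% and 57.5%. At day 0 the lines differed, with 32.1% Cdx1 in G6 and 85.6% in H8. At day 4 Cdx1 and Cdx2 were nearly level in both lines, at 41.6% and 42.3% in G6 and 45.1% and 45.3% in H8. The day 0 shares of G6 rest on 8, 8 and 12 counts.

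**Figure D3:**
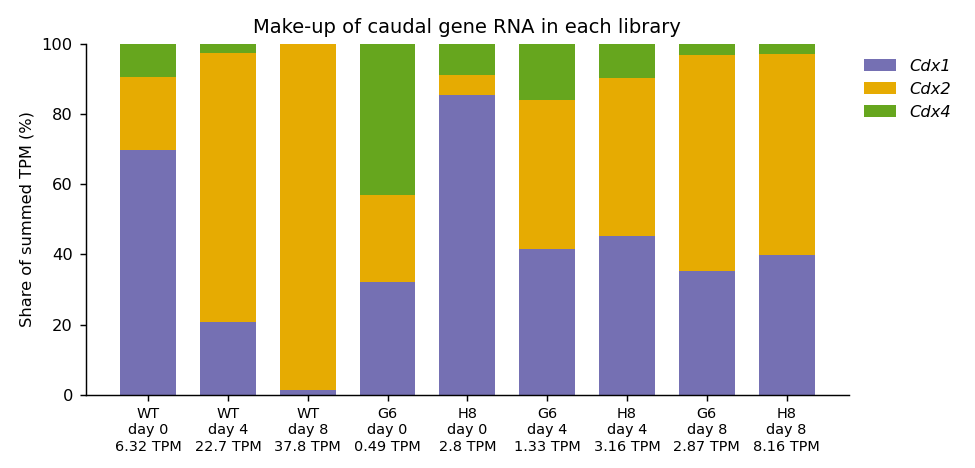
Share of the summed TPM of the 3 caudal genes that each gene holds (vertical axis, percent) in each of the 9 libraries, with the summed TPM under each bar. Wild type passes from 69.9% Cdx1 at day 0 to 98.7% Cdx2 at day 8, while the knockout lines hold 35.3% and 39.7% Cdx1 at day 8.

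Ordered by group mean, Cdx2 ran from wild type at day 8 through wild type at day 4 to the knockout at day 8 (3.23 ± 2.07 TPM, SD, n = 2). Wild type at day 0 (1.31 TPM), the knockout at day 4 (0.996 ± 0.614) and the knockout at day 0 (0.140 ± 0.0263) followed. Wild type at day 0 lay inside the range of the day 4 knockout and less than 1 SD from the mean of the day 8 knockout. For Cdx1 the order was wild type at days 4 and 0, then the knockout at day 8 (2.13 ± 1.58 TPM), day 0 (1.28 ± 1.58) and day 4 (0.989 ± 0.617), and last wild type at day 8. The 3 knockout groups overlapped, and wild type at day 8 lay inside the range of the day 0 knockout. For Cdx4 it was wild type at days 4 and 0, then the knockout at day 4 (0.259 ± 0.0628 TPM), day 0 (0.227 ± 0.0240) and day 8 (0.158 ± 0.0941), and last wild type at day 8, with neighbouring knockout groups overlapping. A wild-type group has 1 library and no spread of its own. In bulk RNA, fewer cells that express a caudal gene and less of its RNA per cell cannot be told apart.

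The 2 knockout lines differed in the same direction for all 3 genes, with H8 above G6 at each of the days. The H8 to G6 ratio in TPM was 15.2, 2.58 and 3.20 for Cdx1 at days 0, 4 and 8. For Cdx2 it was 1.31, 2.54 and 2.65, and for Cdx4 1.16, 1.42 and 2.46. In a fit of the 6 knockout libraries with day as a term the difference was 2.20 for Cdx1 on the log2 scale (SE 0.565, interval 0.792 to 3.61, adjusted p = 0.343). It was 1.20 for Cdx2 (SE 0.317, interval 0.408 to 1.99, adjusted p = 0.354) and 0.71 for Cdx4 (adjusted p = 0.806). None passed after adjustment, where 0% of genes were called higher in H8 and 0.00403% lower. That fit has 2 residual degrees of freedom, 2172 genes had an unadjusted p under 0.05, and DESeq2 made 811 calls, Cdx1 among them (2.24, adjusted p = 0.00835). H8 also had less Hnrnpll transcript than G6 at each day, a difference that did not pass the test (-0.68, adjusted p = 0.265).

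In the mm10 build Cdx2 lies at chromosome 5, 147300805 to 147307270 on the minus strand, and Cdx4 at chromosome X, 103321398 to 103330592 on the plus strand. Cdx1 lies at chromosome 18, 61018862 to 61036199 on the minus strand. GENCODE M21 gives each gene 1 transcript of 3 exons, of 1750 (Cdx1), 2261 (Cdx2) and 1963 (Cdx4) bases, and none overlaps another annotated gene. The genes that start within 100 kb of Cdx2 were at or near 0. Pdx1, the ParaHox gene of pancreas and duodenum 37.3 kb from Cdx2, stayed between 0.0640 and 0.569 TPM, Urad at or under 0.0914 TPM and Flt3 at or under 0.515 TPM. Next to Cdx1, Pdgfrb, a receptor of mesenchymal cells, stood at 5.15, 3.29 and 38.6 TPM in wild type and at 1.82 to 4.92 TPM in the knockout, and Slc6a7, a transporter, had its highest level in H8 at day 0 (7.16 TPM). Next to Cdx4, Chic1 ranged from 5.30 to 15.6 TPM and Tsx from 0.664 to 4.25 TPM.

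Genes of the signals that act on the caudal genes were described from a list of 21 WNT, FGF and retinoic acid genes. At day 0, 1 rose and 2 fell in the knockout, where 1.11% of all genes were called higher and 4.33% lower (median log2 difference -0.67, against -0.02 over all genes tested). Those that fell were Wnt3 (wild type 1.35 TPM, knockout lines 0.0440 and 0 TPM, adjusted p = 0.0444) and Wnt8a (-3.20 on the log2 scale, adjusted p = 0.0228), ligands of the primitive streak. Fgf4, the ligand made by pluripotent cells, was higher (1.77, adjusted p = 0.0234). At day 4, when Wnt3 stood at 46.3 TPM in wild type and 6.41 and 7.18 TPM in the knockout, no gene of the list passed (median -1.06, against 0.07). Of all genes 0.00403% were called higher and 0.00403% lower at that day. At day 8, 2 rose and 2 fell, each 2 of 21, beside 5.01% of all genes called higher and 4.86% lower (median -0.46, against 0.08). The retinoic acid receptors went both ways, with Rarb at 7.99 TPM in wild type and 0.378 and 0.497 TPM in the knockout (-4.06, adjusted p = 0.0142) and Rarg at 37.9 TPM and 91.0 and 77.0 TPM (1.22, adjusted p = 0.0237). The FGF ligands did so too, with Fgf4 at 2.68 (adjusted p = 0.0175) and Fgf3 at -2.67 (adjusted p = 0.0431).

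Within the knockout 7 of the 21 genes rose and 1 fell between days 0 and 4, the interval of the larger step in Cdx2, where 9.56% of all genes were called higher and 5.16% lower (median 0.04, against 0.06). Wnt3 went from 0.0440 to 6.41 TPM in G6 and from 0 to 7.18 TPM in H8, and Wnt8a (6.02), Fgf8 (5.93) and Cyp26a1, which degrades retinoic acid (4.33), followed in size on the log2 scale. The single fall was that of Fgf4 (-1.46). Of 14 factors of the streak, tail bud and neuromesodermal progenitors 4 rose, including T (7.91) and Sp8 (4.26), and the list's median was 3.3 with genes at 0 counts in a group set at their bound. T (brachyury), the factor that defines the streak, stood at 853 TPM in wild type at day 4 and at 30.7 and 78.5 TPM in G6 and H8. The streak list had a median of -3.55 at day 4 against wild type with no call, where 0.00403% of all genes were called higher and 0.00403% lower. Over all days Nkx1-2 passed the test (-3.45, adjusted p = 0.049), 1 of 14, beside 0.597% of all genes called lower and 0.387% higher. At day 8 the median of the streak list was -0.10, with Sp8 higher (1.67) and Gdf11 lower (-1.85) in the knockout. The wild-type level of T at day 8 (8.08 TPM) lay between those of G6 (7.85) and H8 (9.34).

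Hox genes, known targets of the caudal proteins, were counted in groups along the cluster. At day 8, 5 of 15 central Hox genes (groups 5 to 9) fell in the knockout and none rose, beside 4.86% of all genes called lower and 5.01% higher, with a median of -3.77 against 0.08 over all genes. Hoxc8 stood at 28.4 TPM in wild type and 0.245 and 1.05 TPM in the knockout (-5.33, adjusted p = 0.0393), and Hoxb8 at 6.16 TPM and 0.180 and 0.524 TPM (adjusted p = 0.025). Hoxd8 (-2.99) and Hoxb9 (-2.95) were next in size. Of 12 anterior genes (groups 1 to 4) 3 fell (median -2.23), with Hoxd3 at -4.57, Hoxd4 at -3.72 and Hoxb4 at -2.32, and of 11 posterior genes tested (groups 10 to 13; 12 listed) 2 fell, Hoxc10 (-3.97) and Hoxd13 (-3.40; median of the list -3.40).

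**Figure D4:**
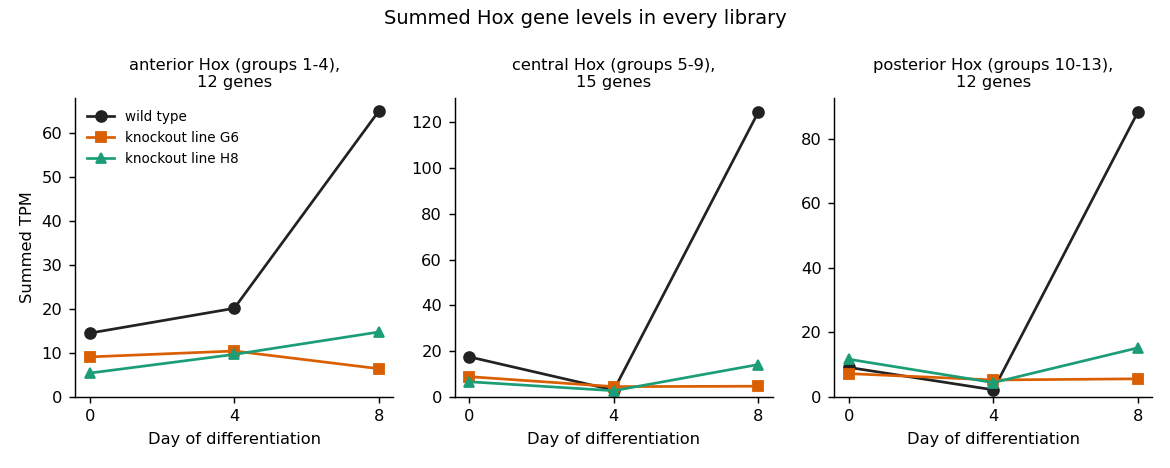
Summed TPM of the anterior, central and posterior Hox genes (vertical axes, from 0, a different scale for each panel) against the day of differentiation, with 1 point per library: black circles for wild type, orange squares for knockout line G6 and green triangles for line H8. Wild type reaches 64.9, 124.6 and 88.4 TPM at day 8, and both knockout lines stay below 16 TPM in each group.

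The summed Hox levels are given beside those of Cdx2. In wild type the summed level of the central genes was 17.5 TPM at day 0, 2.90 at day 4 and 124.6 at day 8, and Cdx2 stood at 1.31, 17.3 and 37.3 TPM. The knockout libraries had 6.57 to 8.80, 2.66 to 4.45 and 4.63 to 14.1 TPM. At day 4, where Cdx2 was 30.8 and 12.1 times lower in the knockout, wild type lay inside the range of the knockout for the central genes. No Hox gene passed the test at that day, when only 0.00403% of all genes were called lower and 0.00403% higher. The lack of a call thus does not set the Hox genes apart from other genes. The medians at that day were -0.79 for the anterior and 0.29 for the central genes, and 0.82 for the posterior genes, with genes at 0 counts in a group (2, 3 and 6) set at their bound, or at 0 where no fold can be given. Among these was Hoxb13, at 225 counts in the knockout and 0 in wild type. Set against a floor of 3 counts, Hoxb13 was at least 34.7-fold higher in the knockout at day 4. That bound takes the knockout mean as exact and would be lower if counts come in steps of 4. The relation of the caudal genes to the Hox genes was not tested.

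Over the 9 libraries the genes of most similar pattern to Cdx2, by Pearson correlation of log2(TPM + 1) among 12312 genes that reached 5 TPM, were Kdr (0.989), the VEGF receptor of vascular and blood progenitors, Pcdh18 (0.988) and Rspo3 (0.988), a WNT potentiator. Rbbp7 (0.980), Sema6d (0.974) and Dsp (0.972) came next. Their Spearman rho was between 0.833 and 0.983. The libraries share lines and days, so these values describe the pattern only. Kdr stood at 2.46, 32.2 and 93.0 TPM in wild type and at 0.267 to 4.96 TPM in the knockout, values that its likeness to Cdx2 already implies and that are given without a test. Of these 6 genes 1 was also among the 6 nearest by Spearman rho and 3 with log2(TPM + 0.1).

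**Figure D5:**
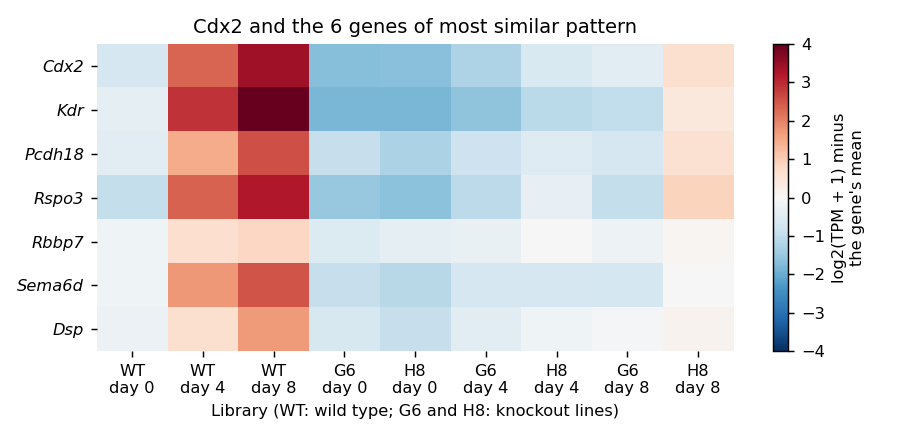
Level of Cdx2 and of the 6 genes most correlated with it, as log2(TPM + 1) minus the gene's mean over the 9 libraries (color, red above and blue below the mean), for wild type and knockout lines G6 and H8 at days 0, 4 and 8. Each gene is highest in wild type at day 8, and each was chosen for its likeness to Cdx2.

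Of the 3 pairs of caudal genes, Cdx1 and Cdx4 had the highest correlation. Over the 9 libraries it was 0.767 by Pearson's r of log2(TPM + 1) (Spearman 0.85), against 0.174 (0.283) for Cdx1 with Cdx2 and -0.0964 (-0.05) for Cdx4 with Cdx2. The genes most like Cdx1 were Mettl1 (0.887), Ints13 (0.883), Dusp5 (0.871), Socs2 (0.871), Paics (0.854) and Isg20 (0.817). Those most like Cdx4 were Fdxacb1 (0.949), Snord100 (0.924), Utp18 (0.919), Cdk6 (0.903), Prpsap2 (0.899) and Grwd1 (0.898). Of the 6 genes, 3 for Cdx1 and 2 for Cdx4 were also among the 6 nearest by Spearman rho. With log2(TPM + 0.1) 4 and 3 were. Cdx4 stayed at or under 0.609 TPM, so its correlations rest on values near 0. Pou5f1, the pluripotency factor that opposes Cdx2 in the early embryo, had a correlation of -0.821 with Cdx2 (Spearman -0.8), 0.249 (-0.0167) with Cdx1 and 0.513 (0.283) with Cdx4. It stood at 1372, 1060 and 178 TPM in wild type, at 1953, 1025 and 1088 TPM in G6 and at 1761, 1161 and 1013 TPM in H8. The relation of Pou5f1 to the caudal genes was not tested.

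Markers of some cell types that the bodies could hold also differed at day 8, and their part in the caudal differences was not tested. Of 10 pluripotent cell markers 9 rose in the knockout at day 8 and none fell, beside 5.01% of all genes called higher and 4.86% lower (median 2.64, against 0.08 over all genes), with a summed level of 1285 TPM in wild type and 7309 to 7601 TPM in the knockout. Esrrb (3.11), Nanog (3.02), Tdgf1 (adjusted p = 0.0142) and Zfp42 (2.87) had the largest differences, and Pou5f1 differed by 2.68. Of 13 haemato-endothelial genes tested (14 listed) 1 rose and 3 fell (median -2.39), with a sum of 732 TPM in wild type and 61.6 to 72.1 TPM in the knockout. The wild-type sum rests mostly on the embryonic globin Hbb-bh1 (wild type 462 TPM, G6 0 and H8 2.61 TPM), which did not pass (adjusted p = 0.0874). Those that fell were Cdh5 (-5.42), Kdr and Lmo2 (-3.44), Spi1 rose (4.59), and the endothelial marker Pecam1 was higher in both knockout libraries without passing (1.24, adjusted p = 0.14). Of 10 fibroblast and mesenchyme markers 3 fell (median -3.75; sum 1503 against 66.6 to 246 TPM), and of 10 endoderm markers 2 fell, Foxa1 and Ttr (median -2.11; sum 403 against 57.8 to 73.8 TPM).

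Trophoblast and intestine, the tissues of Cdx2 outside the body axis, were checked the same way. Of 16 trophoblast genes tested (18 listed) 1 rose and 1 fell at day 8 (Esrrb and Fgfr2; median -0.26), near the 5.01% and 4.86% of all genes, with a sum of 2797 TPM in wild type and 1484 to 2488 TPM in the knockout. Most of that sum came from the epithelial keratins Krt8 and Krt18, at 1014 and 1296 TPM in wild type. Esrrb is also in the list of pluripotent cell markers and was counted there as well. In wild type Hand1 stood at 239 TPM, against 14.7 and 57.8 TPM in the knockout lines, Plac1 at 30.2 TPM and 3.76 and 4.63 TPM, and Gata3 at 8.98 TPM and 2.32 and 4.60 TPM (adjusted p = 0.0713, 0.0636 and 0.239). Others went the other way without passing: Krt7 (11.7 TPM in wild type, 28.6 and 31.8 TPM in G6 and H8), Tfap2c (10.7, 22.4 and 41.4 TPM) and Ascl2 (2.39, 4.8 and 4.42 TPM). Of the 16 differences in the list 7 were above 0 and 9 below. The trophoblast markers Prl3d1 (0 in all 9 libraries), Tpbpa (0 in all but H8 at day 8, at 0.234 TPM) and Elf5 (at or under 0.409 TPM) were at or near 0. Of 13 intestinal genes tested (15 listed) 1 fell, Vil1 (-2.99), and the median was 0.07, with 7 differences above 0 and 6 below. Vil1 (16.6 TPM), Hnf4a (12 TPM), Tff3 (9.02 TPM) and Fabp2 (1.84 TPM) were present in wild type at day 8 and lower in both knockout libraries of that day, while Cdh17, Isx and Sis stayed at or under 0.206, 0.0641 and 0.298 TPM. Krt20 (1.15 TPM in wild type, 1.67 and 2.07 TPM in G6 and H8) and Muc2 (0.313, 0.574 and 0.324 TPM) were higher in both knockout libraries, without passing. Genes of both lists were thus present in wild type at day 8, where Cdx2 was highest, and their part in its level was not tested. The other ParaHox genes, Gsx1, Gsx2 and Pdx1, stayed at or under 0.569 TPM in every library.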

How the data were processed

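PolyA+ RNA-seq of 9 libraries (wild type and Hnrnpll knockout, days 0, 4 and 8) was used. The submitters' processing notes name HISAT2 2.0.5, StringTie 1.3.3b and mm10, without roles; annotation and strand use are not given in the sources used here. Each library has whole-number counts, unscaled, as the authors deposited them. TPM per gene were also deposited by the authors. The 259 entries without a gene name (0.0242% to 0.0398% of counts) were left out.

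A gene was kept where 2 or more libraries reached 0.0791 CPM, which is 10 counts at median depth. Scaling was by TMM, and the test was the two-sided quasi-likelihood test of edgeR 4.0.16 (R 4.3.3, limma 3.58.1). Benjamini-Hochberg adjustment ran over all genes within each of 9 comparisons. Comparisons within a day, between days and of steps came from a model of 6 group means (3 residual degrees of freedom, all of them from the knockout lines; biological coefficient of variation 0.348). The difference over all days came from a model of day and genotype (5 degrees of freedom, 0.494), and that of the lines from day and line (2, 0.309). The code was tested on simulated data. Coordinates came from GENCODE M21.

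Lines recur across days, and the differences between them correlated between days (0.188, 0.164 and 0.415 over 15025 genes), so a replicate block pairs libraries of 1 line. Alternatives were 2 other scalings, no filter, DESeq2 1.42.0, limma-voom, limma on TPM with a pseudocount of 1 or 0.1, the block, each library or line left out and, added after the data were seen, no day 0 libraries.

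The caudal genes and the gene lists were chosen with earlier results of these data known. Named besides the caudal genes and Hnrnpll are up to 4 members of a list past the threshold in a comparison by size of difference, genes within 100 kb, and the 6 most similar genes; further names (Pou5f1, T at days 4 and 8, Hoxb13, Hbb-bh1, Pecam1, the trophoblast and intestine genes that did not pass) were chosen after their values were seen.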

Additional observations from a re-analysis of the deposited data

Results flagged for a closer look

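For 2 caudal genes both knockout libraries were below wild type at day 4 and above it at day 8. For Cdx1 the difference between knockout and wild type moved by 4.54 on the log2 scale between these days (edgeR, adjusted p = 0.361). For Cdx4 it moved by 8.68 (adjusted p = 0.147), a fitted size that is no bound because wild type held 0 counts at day 8. Neither change passed the test of the difference itself, for which edgeR called 0 of 24794 genes. How many of all genes lie below wild type at day 4 and above it at day 8 was not counted.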

How the results depend on the processing

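Of the caudal genes, edgeR called 0 at days 0 and 4, 2 at day 8, 1 over all days, and 0 along the knockout course, for its steps against wild type and between lines. With DESeq2 1 was called at day 0, at day 4, from day 0 to 4 in the knockout, for the step from day 4 to 8 against wild type (Cdx4, adjusted p = 0.0258) and between lines. The replicate block, which pairs libraries of a line, called 1 at day 0 and 1 from day 0 to 4 in the knockout, and total count scaling 1 for the latter. At day 8 limma-voom and both limma fits on TPM called 1, and over all days limma on log2(TPM + 1), G6 or H8 alone (Cdx2 -4.32 and -3.19, adjusted p = 0.257 and 0.186) and no day 0 libraries called 0. Leaving out 1 library gave 0 to 2 at day 8, 0 to 1 over all days and 0 to 1 from day 0 to 4 in the knockout. Cdx2 kept its sign against wild type in 16 of 16, 17 of 17, 17 of 17 and 20 of 20 alternatives at days 0, 4, 8 and over all days, and passed in 2, 1, 13 and 11.

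Signs turned only in values that did not pass. The knockout step of Cdx1 from day 0 to 4 was 0.455 (limma-voom), 0.317 (log2(TPM + 0.1)), 0.186 (replicate block) and -1.31 to 2.71 with 1 library left out, and that of Cdx4 -0.0947 to 0.458. Against wild type that step was 0.284, 0.228, 0.0154 and -1.48 to 2.53 for Cdx1 and -0.221 to 0.332 for Cdx4. The later step of Cdx2 against wild type was -0.0374 with log2(TPM + 1) and -0.0133 to 1.63 with 1 library left out. Cdx4 over all days was 0.273 without G6, 0.366 without the day 0 libraries and -1.34 to 0.426 with 1 library left out. The cause was not tested. Fits of 1 line within a day have no residual degrees of freedom and were not run. Where a group is left with 1 library, it is assumed to vary like the others.

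Over all genes the calls ranged over the alternatives from 375 to 3737 at day 0 (1347 in the edgeR fit), 0 to 1320 at day 4 (2), 0 to 5455 at day 8 (2446) and 0 to 3348 over all days (244). They ranged from 675 to 6065 (3650) and 0 to 1565 (77) for the knockout steps, 0 to 1898 (125) and 0 to 1577 (0) for these against wild type, and 0 to 811 (1) between lines, always with the most calls by DESeq2. At day 4 total count scaling left 0 higher and 1 lower, against 1 and 1. The depth of the day 0 knockout libraries, with 8 to 16 counts for most caudal values, limits day 0.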
